A study of Mus musculus with 56 samples.

Results

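The alpha class of glutathione transferases (GSTs) was followed in mouse N2a neuroblastoma cells and in 6 mouse tissues. It comprises 5 genes here, Gsta1, Gsta2, Gsta3, Gsta4 and Gm3776, out of 23087 genes in the table of the N2a co-transfection experiment. The genes were picked by name, and because they had already been seen to differ between the co-transfection groups. Their values in that experiment are therefore a description without a test, whereas the tissue samples and an earlier N2a experiment were not used in the choice and were tested.

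The co-transfection experiment had 5 groups of 3 libraries. All received a small interfering RNA (siRNA) and a plasmid by lipofection: a non-targeting siRNA with the control plasmid pcDNA (siNT pcDNA), an siRNA against Fmr1 with pcDNA (siFmr1 pcDNA), an siRNA against Mbnl1 with pcDNA (siMbnl1 pcDNA), siFmr1 with a FLAG-tagged nuclear MBNL1 (siFmr1 nMBNL1), and siMbnl1 with a FLAG-tagged cytosolic MBNL1 (siMbnl1 cMBNL1). No group received an MBNL1 plasmid together with the non-targeting siRNA, and each siRNA was paired with 1 of the MBNL1 forms, so form and siRNA cannot be told apart. Fmr1 encodes FMRP, an RNA-binding protein that represses translation and is lost in fragile X syndrome. Mbnl1 encodes muscleblind-like 1, an RNA-binding protein that regulates splicing and RNA localisation. The earlier N2a experiment had 2 siNT and 3 siFmr1 libraries without a plasmid. Cortex, hippocampus, cerebellum, liver, muscle and testis each gave 3 wild-type (WT) and 3 Fmr1 knockout (KO) samples, whose age and sex are not given in the labels. The labels do not say whether libraries of a group came from separate cultures or animals, so p-values measure the spread between these samples, which may be technical. In these bulk samples, fewer cells of a type and less RNA per cell cannot be told apart.

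Glutathione transferases join the tripeptide glutathione to reactive electrophiles, which makes them soluble and lets export pumps remove them. Alpha-class enzymes also reduce lipid hydroperoxides, and the Gsta4 enzyme is known for its preference for 4-hydroxynonenal, an aldehyde formed by lipid peroxidation. The class is best known from liver, where Gsta3 is a constitutively abundant form and Gsta1 and Gsta2 are classical inducible genes. Their promoters are textbook targets of NRF2 (Nfe2l2), which binds the antioxidant response element and is held back by KEAP1, and of the aryl hydrocarbon receptor, which binds the xenobiotic response element with ARNT.

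Gsta4 (chr9:78182774-78209349, plus strand), Gsta1 (chr9:78230656-78242684, plus strand), Gm3776 (chr9:78257129-78269166, plus strand) and Gsta2 (chr9:78331018-78355788, minus strand) lie in 1 cluster on chromosome 9 of GRCm38. Gsta3 stands alone on chromosome 1 (chr1:21240589-21265661, plus strand). Each of the 5 has 7 exons in its longest coding transcript. Gm10639 (chr9:78289923-78305525, plus strand), a protein-coding gene between Gm3776 and Gsta2, is a further near copy that the member list does not hold. It is given beside the members because reads can be shared with it. The transcripts of Gsta1 and Gm3776 were identical at 99.5% of aligned bases, and only 18.2% of the 100-base windows of Gsta1 and 22.3% of those of Gm3776 occurred in none of the other 5 genes of the cluster and Gsta3. For Gsta2 that share was 65%, for Gm10639 70.0%, and for Gsta4 and Gsta3 100%. The split of reads among Gsta1, Gm3776, Gsta2 and Gm10639 is therefore uncertain, whereas Gsta4 and Gsta3 had no 100-base window in common with another gene of the class. Over the 669 coding bases Gsta1 differed from Gm3776 at 2, from Gsta2 at 14 and from Gm10639 at 18 positions.

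A stretch of 60 coding bases shows how close the copies are. Capitals mark bases that differ from Gsta1, and the 4 stretches come from the GRCm38 transcripts.
Gsta1: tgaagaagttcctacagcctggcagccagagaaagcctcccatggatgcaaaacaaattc
Gm3776: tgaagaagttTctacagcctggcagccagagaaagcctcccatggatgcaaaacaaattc
Gsta2: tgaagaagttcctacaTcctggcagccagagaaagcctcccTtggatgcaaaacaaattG
Gm10639: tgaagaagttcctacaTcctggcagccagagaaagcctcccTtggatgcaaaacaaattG
In this stretch Gm3776 differed from Gsta1 at 1 base, and Gsta2 and Gm10639 at 3 bases each.

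The promoters of the copies are shown because Gsta1, Gm3776, Gsta2 and Gm10639 had closely parallel values across the groups. RefSeq promoters (GRCm38.p6, 250 bases before to 50 after the start) were found for 4 of the 5 members and for Gm10639. They were searched on both strands for GCGTG, the core of the xenobiotic response element, and for TGACNNNGC, the core of the antioxidant response element, which share no bases in these windows. The stretches of 95 bases read 5′ to 3′ along the gene. Capitals mark a match, and in Gm10639 the aligned bases that are not a match.
Gsta1 (chr9:78230587-78230681, plus strand): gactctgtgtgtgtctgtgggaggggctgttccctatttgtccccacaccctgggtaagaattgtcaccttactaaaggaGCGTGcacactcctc
Gm3776 (chr9:78257060-78257154, plus strand): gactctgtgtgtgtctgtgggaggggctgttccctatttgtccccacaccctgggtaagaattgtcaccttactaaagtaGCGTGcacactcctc
Gsta2 (chr9:78347138-78347232, minus strand): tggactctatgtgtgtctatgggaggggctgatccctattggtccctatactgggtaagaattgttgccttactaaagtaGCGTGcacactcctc
Gm10639 (chr9:78289859-78289953, plus strand): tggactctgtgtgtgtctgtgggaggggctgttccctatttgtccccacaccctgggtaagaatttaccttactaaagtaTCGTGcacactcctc
Gsta3 (chr1:21240421-21240515, plus strand): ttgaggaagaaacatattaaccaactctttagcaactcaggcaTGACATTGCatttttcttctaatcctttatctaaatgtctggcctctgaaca
GCGTG occurred in the windows of Gsta1, Gm3776 and Gsta2, and in 32.4% of all 32851 RefSeq promoters of the same length. Counted from the start, these matches began at base -2 in Gsta1, -7 in Gsta2 and 12 in Gm3776. TGACNNNGC occurred in the window of Gsta3, and in 12.4% of all promoters. Bases further upstream were not searched, so a window without a match does not show that a gene lacks the element. Over the whole windows, Gsta1 was identical to Gm3776 at 99.0%, to Gm10639 at 97.9% and to Gsta2 at 80.3% of aligned bases. A match is a description of letters, not of a bound site.

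In the pcDNA groups the siRNA targets were lower in the libraries labelled for them. Fmr1 fell from 3093 ± 443 normalized counts (SD, n = 3) in siNT pcDNA to 594 in siFmr1 pcDNA (limma log2 fold change -2.37 ± 0.13 SE, adjusted p = 1.06e-08) and was at 538 in siFmr1 nMBNL1. Mbnl1 fell from 4396 to 1485 in siMbnl1 pcDNA (-1.56 ± 0.11, adjusted p = 1.87e-07). It was at 12140 in siFmr1 nMBNL1 and at 19762 in siMbnl1 cMBNL1, where a gene total cannot tell plasmid from endogenous RNA. A fall of endogenous Mbnl1 is therefore not shown in siMbnl1 cMBNL1. Normalized counts summed to between 31955037 and 33273189 per library, their original depth is unknown, and the lowest nonzero values were near 1. The 3 siNT pcDNA libraries were more spread than the others, with a median SD over genes of 0.236 (log2) against 0.0963 to 0.113 in the other groups, and siNT pcDNA 3 lay at 38.8 on the second principal component against 55.8 and 58.1 for the other two. All 12 markers of sympathetic neuroblasts were listed, with a summed level of 58295 to 69006 in siNT pcDNA, 64559 to 74371 in siMbnl1 pcDNA and 84755 to 89806 in siFmr1 pcDNA, and all 8 hepatocyte markers had a mean under 5 in every group, with a summed level of 0.901 to 9.29 per library. The part of the shift in neuroblast markers in the values of the members was not tested.

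In control N2a cells the alpha class was close to absent, and after siMbnl1 all 5 genes were higher. Gsta1 was at 0, 0 and 1.04 normalized counts in the 3 siNT pcDNA libraries and at 84.5, 103 and 64.8 in siMbnl1 pcDNA. Every siMbnl1 library lay above every siNT library, a difference of 6.04 ± 0.39 in log2(value + 1) (standard error from the spread of the libraries, n = 3 and 3). Gsta2 was listed at 0 in all 3 siNT libraries and at 26.1, 31.4 and 21.9 in siMbnl1 pcDNA. Gm3776 was at 1.11, 0 and 0 in siNT pcDNA and at 14.4, 38.6 and 22.6 in siMbnl1 pcDNA. For these near copies the control libraries hold 0 or a value near 1, so no fold is given.

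Gsta4 and Gsta3, which share no window with the copies, were measurable in control cells, and both were higher after siMbnl1. Gsta4 was at 6.66, 3.99 and 6.24 in siNT pcDNA and at 63.0, 82.1 and 77.9 in siMbnl1 pcDNA, a ratio of means of 13.2 (log2 difference 3.52 ± 0.23). Gsta3 was at 2.31, 5.78 and 2.17 in siNT pcDNA and at 33.6, 51.6 and 38.9 in siMbnl1 pcDNA, a ratio of 12.1 (3.33 ± 0.40). So all 5 members were higher without overlap between the libraries, which held for 19.1% of the 16242 genes tested. Since the members were chosen from these values, nothing is read from that count. Without siNT pcDNA 3 the differences of the 5 members were 3.14 to 6.38 in place of 3.33 to 6.04. The Gsta3 ratio depends on siNT pcDNA 2, its highest control value. Over 9 alternative settings (pseudocounts, rescaling and leaving out 1 library) the Gsta3 difference ranged from 2.47 to 3.69.

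**Figure D1:**
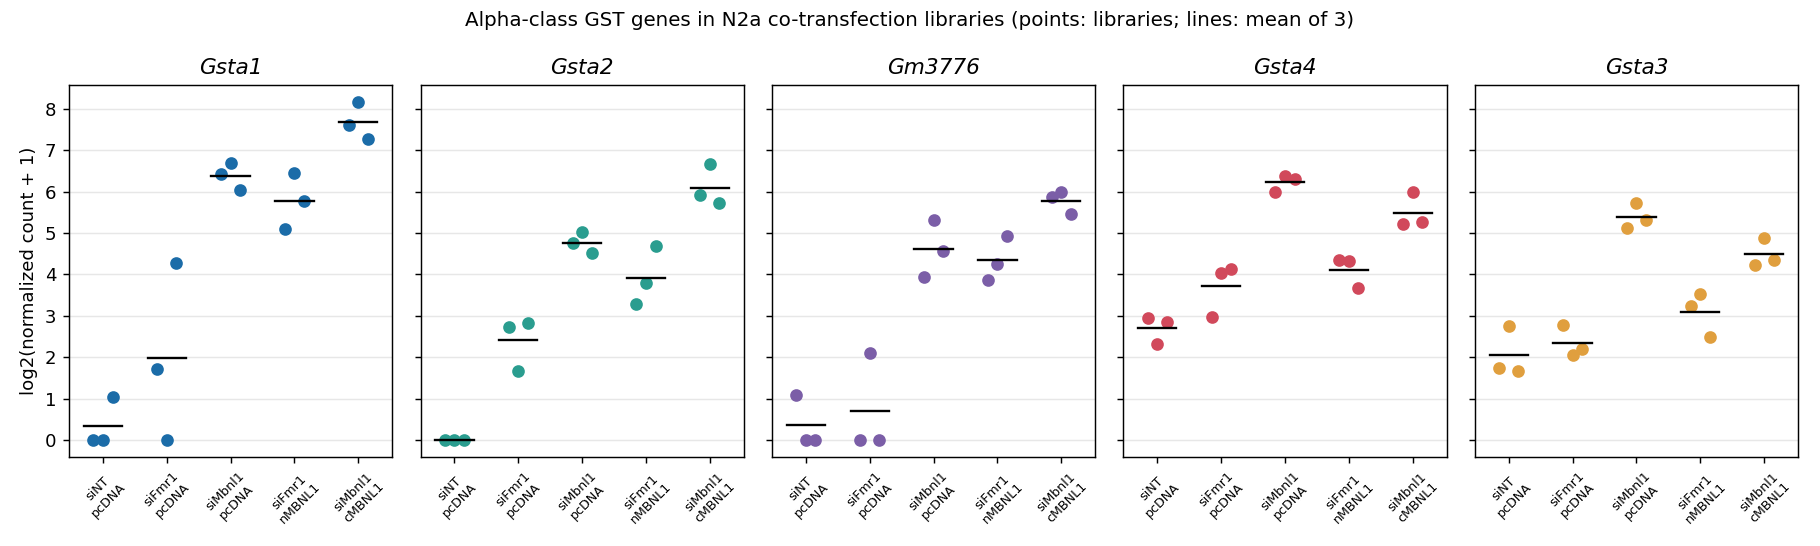
Level of each alpha-class gene as log2(normalized count + 1) on the y axis, by co-transfection group on the x axis, with 1 point per library and a line at the mean of 3. Gsta1, Gsta2 and Gm3776 are highest in siMbnl1 cMBNL1, whereas Gsta4 and Gsta3 are highest in siMbnl1 pcDNA, and all 5 are lowest in siNT pcDNA.

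After siFmr1 the levels stayed much lower. Gsta2 was at 5.67, 2.20 and 6.10 in siFmr1 pcDNA against 0 in every siNT pcDNA library, and Gsta4 was at 6.80, 15.4 and 16.6 against 3.99 to 6.66, a ratio of means of 2.29. These 2 members did not overlap with the control, as did 22.9% of all genes tested, although the lowest siFmr1 value of Gsta4 (6.80) was just above the highest control value (6.66). Gsta1 was at 2.27, 0 and 18.3, Gm3776 at 0, 3.30 and 0, and Gsta3 at 5.88, 3.16 and 3.62, all overlapping with the control. The Gsta1 mean of 6.86 ± 9.98 (SD, n = 3) thus rests on siFmr1 pcDNA 3. Set directly against siFmr1 pcDNA, siMbnl1 pcDNA was higher without overlap for all 5 members (27.5% of all genes tested), with ratios of means of 5.68 for Gsta2, 5.75 for Gsta4 and 9.81 for Gsta3.

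In siMbnl1 cells the members went in 2 directions with cytosolic MBNL1. Whether members differed from each other in this was not tested. With cytosolic MBNL1 added to siMbnl1 cells, Gsta1 was at 195, 287 and 153 against 84.5, 103 and 64.8 with pcDNA, a ratio of means of 2.52 (log2 difference 1.3 ± 0.33). Gsta2 was at 59.3, 101 and 51.6, a ratio of 2.67 (1.34 ± 0.32), and Gm3776 at 57.3, 62.2 and 43.2, a ratio of 2.15 (1.17 ± 0.42). In each of these 3 genes all libraries with cytosolic MBNL1 lay above all libraries with pcDNA, as in 17.3% of all genes tested. Gsta4 and Gsta3 went the other way. Gsta4 was at 36.5, 62.2 and 37.5 with cytosolic MBNL1 against 63.0, 82.1 and 77.9 with pcDNA (log2 difference -0.73 ± 0.27), and Gsta3 at 17.7, 28.5 and 19.5 against 33.6, 51.6 and 38.9 (-0.90 ± 0.27). Both were lower without overlap, as were 16.7% of all genes tested, but for Gsta4 the gap between the nearest libraries was small (62.2 against 63.0). All 5 members remained above siNT pcDNA in every library of siMbnl1 cMBNL1 (20.5% of all genes), with a ratio of means of 8.06 for Gsta4 and 6.40 for Gsta3. Over the 9 alternative settings the log2 difference of Gsta3 from siNT pcDNA ranged from 1.68 to 2.79.

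Nuclear MBNL1 added to siFmr1 cells went with higher values of the same 3 near copies. Gsta1 was at 33, 86.9 and 54.2 in siFmr1 nMBNL1 against 2.27, 0 and 18.3 in siFmr1 pcDNA (log2 difference 3.78 ± 1.3). Gm3776 was at 13.6, 18.1 and 29.5 against 0, 3.30 and 0 (3.65 ± 0.77). Gsta2 was at 8.73, 12.9 and 24.7 against 5.67, 2.20 and 6.10, a ratio of means of 3.32 (1.51 ± 0.55). In these 3 the libraries did not overlap, as for 17.1% of all genes tested in the same direction. Gsta4 (19.4, 18.9 and 11.8) and Gsta3 (8.36, 10.6 and 4.65) overlapped with siFmr1 pcDNA, with log2 differences of 0.40 ± 0.43 and 0.74 ± 0.38. Against siNT pcDNA, 4 members were higher without overlap in siFmr1 nMBNL1 (23.6% of all genes), and Gsta3 overlapped.

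**Figure D2:**
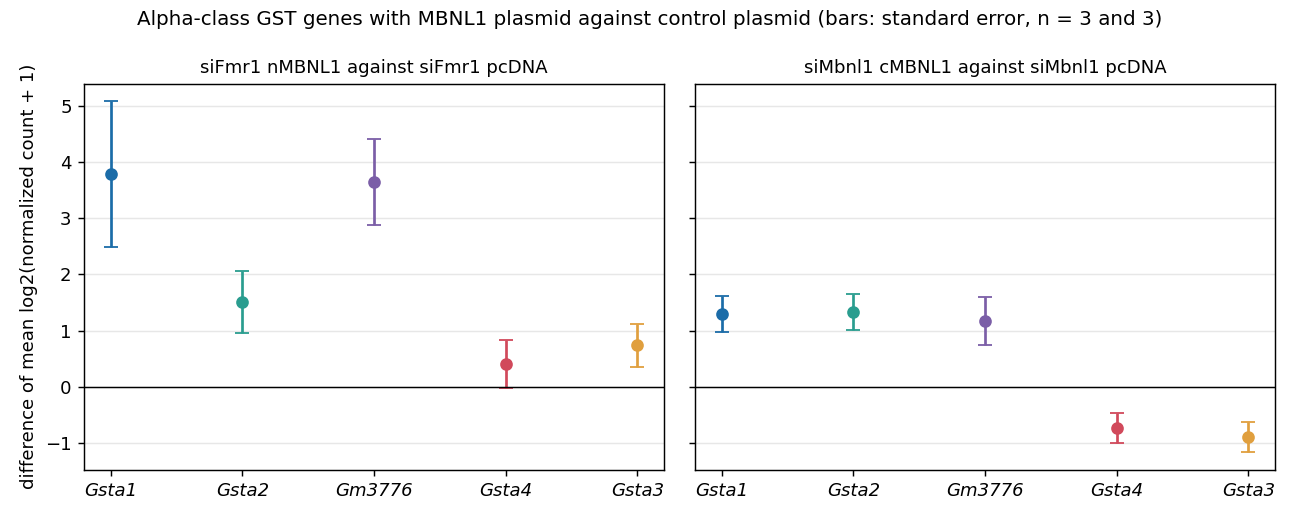
Difference of mean log2(normalized count + 1) between libraries with an MBNL1 plasmid and libraries with pcDNA on the y axis, for each alpha-class gene on the x axis, in siFmr1 cells with nuclear MBNL1 and in siMbnl1 cells with cytosolic MBNL1. Bars are the standard error (3 against 3 libraries), and in siMbnl1 cells Gsta1, Gsta2 and Gm3776 lie above 0 while Gsta4 (-0.73) and Gsta3 (-0.90) lie below it.

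Gsta1, Gsta2 and Gm3776 thus had another order of the groups than Gsta4 and Gsta3. For Gsta1 the groups ran from siNT pcDNA (0 to 1.04) and siFmr1 pcDNA (0 to 18.3), which overlapped, through siFmr1 nMBNL1 (33 to 86.9) and siMbnl1 pcDNA (64.8 to 103), which overlapped too, up to siMbnl1 cMBNL1 (153 to 287). Gm3776 had the same order and the same overlaps, and Gsta2 differed from them in that siNT pcDNA and siFmr1 pcDNA did not overlap. For Gsta4 and Gsta3 the order was siNT pcDNA, siFmr1 pcDNA, siFmr1 nMBNL1, siMbnl1 cMBNL1 and siMbnl1 pcDNA. For both of these genes siFmr1 pcDNA and siFmr1 nMBNL1 overlapped, and the 2 siMbnl1 groups stood above them.

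Per kilobase of transcript, which allows levels of different genes to be set side by side, the leading member changed with the group. Control cells held mostly Gsta4 (5.76 normalized counts per kb) and Gsta3 (2.35), with 0.423 or less for the other 3. In siMbnl1 pcDNA, Gsta1 was at 96.0 ± 21.6, Gsta4 at 76.1 ± 10.3, Gsta2 at 30.4 ± 5.49, Gm3776 at 28.9 ± 14.1 and Gsta3 at 28.4 ± 6.36 (SD, n = 3), so neither the first 2 nor the last 3 differed beyond their spread. In siMbnl1 pcDNA 3 Gsta4 was ahead, with 32.4% of the summed level of the class against 30.1% for Gsta1. In siMbnl1 cMBNL1, Gsta1 was at 242 ± 78.6, ahead of Gsta2 (81.0 ± 30.3), Gm3776 (62.0 ± 11.3), Gsta4 (46.5 ± 14.8) and Gsta3 (15 ± 3.97). Gsta1 made up 30.1% to 39.7% of the summed level of the 5 genes and Gm10639 in the siMbnl1 pcDNA libraries and 48.2% to 50.3% in the siMbnl1 cMBNL1 libraries. The share of Gsta3 was 9.49% to 10.9% in the former and 2.68% to 3.69% in the latter. The ranks and shares of Gsta1, Gsta2, Gm3776 and Gm10639 rest on a split of reads that is uncertain.

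Gm10639, the near copy outside the member list, had the same order of groups as Gsta1 apart from the 2 lowest. It was at 0, 2.99 and 1.04 normalized counts in siNT pcDNA, at 0, 0 and 0.872 in siFmr1 pcDNA and at 12.6, 19.3 and 14 in siMbnl1 pcDNA. It stood at 6.79, 8.61 and 16.5 in siFmr1 nMBNL1 and at 45.5, 53.9 and 27.2 in siMbnl1 cMBNL1. In the limma fit it rose in siMbnl1 pcDNA against siNT pcDNA (3.00 ± 0.52 SE, adjusted p = 0.000391) and in siFmr1 nMBNL1 against siFmr1 pcDNA (3.15 ± 0.52, adjusted p = 0.00926). The second call was lost without siFmr1 pcDNA 1 (adjusted p = 0.0613) or without siFmr1 nMBNL1 3 (0.0638). The difference between siMbnl1 cMBNL1 and siMbnl1 pcDNA did not pass (1.37 ± 0.52, adjusted p = 0.159), although the libraries did not overlap. Gm10639 shares windows with the copies, which were chosen from these same groups. Its values are therefore not independent of the copies, nor are its calls independent of that choice. The sum of Gsta1, Gsta2, Gm3776 and Gm10639 does not depend on how the reads counted for them were split. Whether shared reads were counted or dropped is not known. This sum was 2.06 ± 0.940 in siNT pcDNA, 12.9 ± 10.8 in siFmr1 pcDNA and 104 ± 36.7 in siFmr1 nMBNL1 (SD, n = 3). It reached 151 ± 36.3 in siMbnl1 pcDNA and 379 ± 116 in siMbnl1 cMBNL1, the same order as for Gsta1 alone.

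Across the 15 co-transfection libraries, which share the 5 groups, Pearson's r of log2 values was 0.948 for Gsta1 and Gsta2, 0.873 for Gsta1 and Gm3776, and 0.906 for Gsta4 and Gsta3. It was 0.783 for Gsta1 and Gsta3, 0.821 for Gsta1 and Gsta4, and 0.832 for Gsta2 and Gsta4. Among 14219 other genes, the 5 with the highest r with Gsta1 were Wdr45b (0.944), Zbed5 (0.944), Tor1b (0.935), Hnrnpdl (0.933) and Bccip (0.931). Their relative range was narrower than that of Gsta1: Wdr45b, the first of them, was at 4066 normalized counts in siNT pcDNA and 6136 in siMbnl1 cMBNL1.

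Genes around the cluster were read to see how far along chromosome 9 the pattern reached. Within 500 kb of the cluster the co-transfection table listed 15 further genes without Gm10639, of which 10 were tested. Between siMbnl1 pcDNA and siNT pcDNA, 4 of the 10 rose and 2 fell by limma at an adjusted p under 0.05, where 17% of all genes tested rose and 15.8% fell. Gclc, which encodes the catalytic subunit of the first enzyme of glutathione synthesis and lies upstream of Gsta4, rose from 2239 to 3360 normalized counts (0.59 ± 0.07, adjusted p = 1.06e-05). Fbxo9 and Ick, which lie between it and Gsta4, rose by 0.28 and 0.37 on the log2 scale. Elovl5, a fatty acid elongase, fell by 0.42 and Mto1, a mitochondrial tRNA-modifying protein, fell by 0.26. The calls of Fbxo9, Ick and Mto1 were lost with only the 2 groups compared in the fit (adjusted p = 0.0825, 0.0533 and 0.131), and that of Mto1 also without siMbnl1 pcDNA 1 (0.0856) or 3 (0.0544). Cd109, which encodes a surface glycoprotein, rose from 1.72 to 10.2 (2.08 ± 0.57, adjusted p = 0.0103). It was at 0.871 in siFmr1 pcDNA, 8.04 in siFmr1 nMBNL1 and 20.8 in siMbnl1 cMBNL1, and rose with nuclear MBNL1 against siFmr1 pcDNA (2.39 ± 0.57, adjusted p = 0.0454), the sole call among the 10 in that comparison. That call was lost when any 1 of 5 of the 6 libraries was left out, all but siFmr1 pcDNA 3 (adjusted p = 0.0781 to 0.205), and with the replicate number as a block (0.0611). With cytosolic MBNL1 against siMbnl1 pcDNA none of the 10 passed limma at an adjusted p under 0.05, and Cd109 differed by 0.96 ± 0.57 (adjusted p = 0.373). In siFmr1 pcDNA against siNT pcDNA, where the alpha class was low, Fbxo9 was the 1 call among the 10. It rose there by 0.40 (limma adjusted p = 0.000189), more than after siMbnl1.

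**Figure D3:**
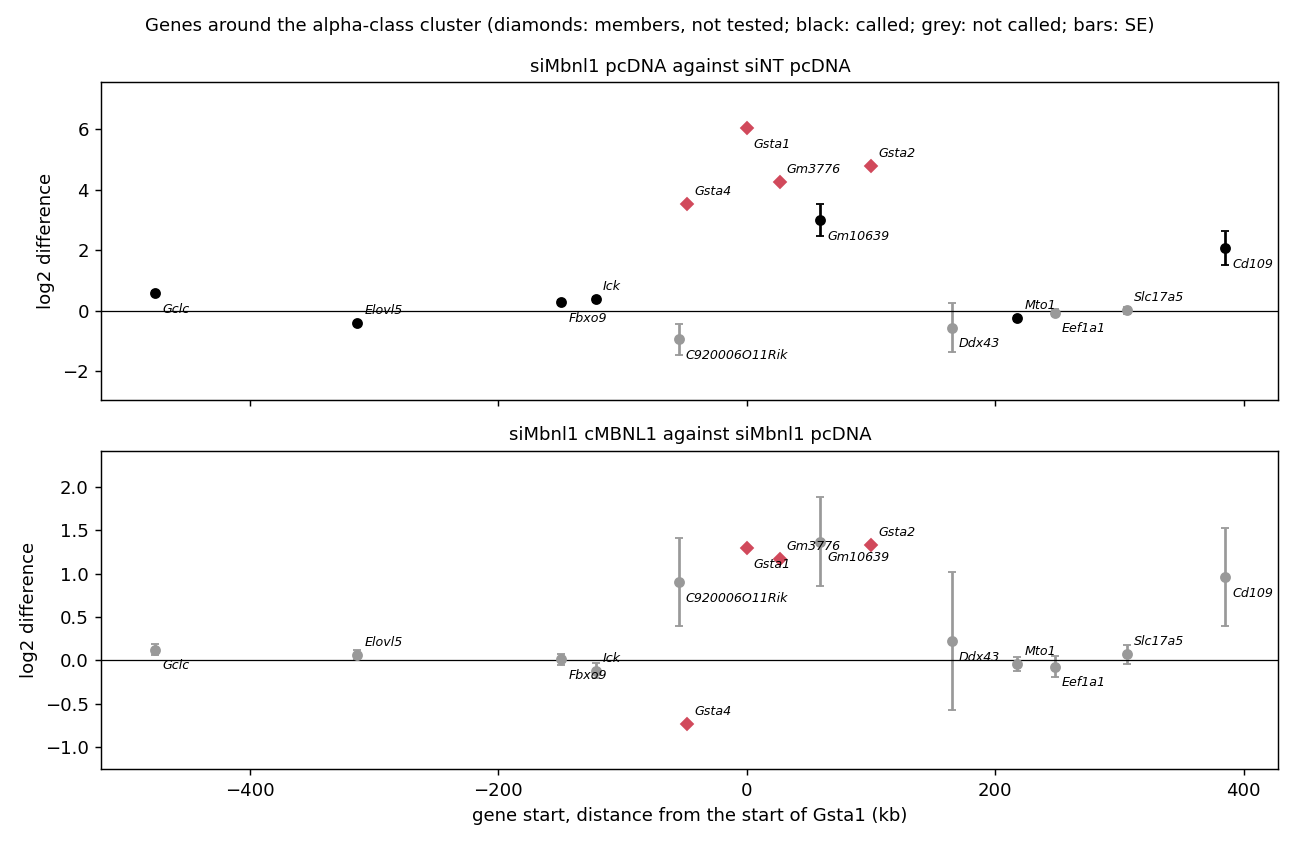
Log2 difference on the y axis against the distance of each gene's start from the start of Gsta1 in kb on the x axis, for 2 comparisons of the co-transfection groups. Diamonds are the alpha-class genes of the cluster, shown without a test, black points are genes that passed and grey points genes that did not, and bars are standard errors; apart from Gm10639 (3.00) the neighbours lie between -0.95 and 2.08 in siMbnl1 pcDNA against siNT pcDNA, below every diamond.

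The wider detoxification pathway was followed in lists of 118 genes, of which 100 passed the filter on low values. The lists were chosen with earlier results of these data known, so their counts are not independent of those results. In siMbnl1 pcDNA against siNT pcDNA, 26 of the 100 rose and 7 fell at a limma adjusted p under 0.05, beside 17% and 15.8% of all genes. The median of the lists was 0.15 on the log2 scale and that of all genes 0.01. With only the 2 groups in the fit 18 rose and 2 fell, beside 15.1% of all genes called, and the number that fell was 4 without siMbnl1 pcDNA 1. Of 25 NRF2 target genes 11 rose and 1 fell. Hmox1, the haem oxygenase, rose from 5668 ± 816 to 11475 ± 1448 normalized counts (SD, n = 3; log2 fold change 1.02 ± 0.12, adjusted p = 1.11e-05). Cbr3, a carbonyl reductase, rose by 1.36 and Nqo1, a quinone reductase that is also on the list of aryl hydrocarbon receptor targets, by 0.47, whereas Me1, the malic enzyme, fell by 0.37. Nfe2l2 itself (0.06 ± 0.07, adjusted p = 0.522) and Keap1 (0.13 ± 0.09, adjusted p = 0.265) did not pass. Of 10 targets of the aryl hydrocarbon receptor 5 passed the filter on low values and 3 of these rose, but Cyp1a1, its most used reporter gene, was at 0 to 0.779 normalized counts in both groups and was not tested.

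The other lists are given for the same comparison, siMbnl1 pcDNA against siNT pcDNA, in which 17% of all genes rose and 15.8% fell, so that counts such as 3 of 23 lie below the share of all genes. Among the enzymes of the same chemistry, 4 of 17 other cytosolic GSTs rose and 1 fell. Gsto1, the omega-class form, rose from 89.2 to 280 normalized counts (log2 fold change 1.71 ± 0.24, adjusted p = 6.61e-05) and Gstk1, the mitochondrial kappa form, by 1.54. Membrane-bound Mgst1 was at 0, 0 and 2.08 in siNT pcDNA and at 4.67 to 9.66 in siMbnl1 pcDNA, and its call (adjusted p = 0.0177) was lost without siMbnl1 pcDNA 2 (adjusted p = 0.0691). Of 23 genes of glutathione synthesis and turnover 3 rose and 1 fell: Gclm, the modifier subunit that works with Gclc, rose by 0.52, and Gss, the glutathione synthetase, fell by 0.40. The calls of Gss and of Mafk, a small partner of NRF2, were lost with only the 2 groups compared in the fit (adjusted p = 0.052 and 0.0504). Among 6 export pumps Abcg2 rose by 0.80. Of 15 regulators Cebpb, a transcription factor of liver and fat cells (0.71), and Mafk (0.33) rose and 3 fell, among them Arnt, the partner of the aryl hydrocarbon receptor (-0.39 ± 0.08, adjusted p = 0.0021). Of 11 aldehyde and steroid enzymes 4 rose and 1 fell. Adh7, an alcohol dehydrogenase, was at 2.24 to 7.98 in siNT pcDNA and at 44.2 to 107 in siMbnl1 pcDNA (3.58 ± 0.46, adjusted p = 3.21e-05). Adh7 was at 35.3 ± 4.61 in siMbnl1 cMBNL1, and its difference from siMbnl1 pcDNA did not pass (-0.82 ± 0.46, adjusted p = 0.346).

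In siFmr1 pcDNA against siNT pcDNA, where the alpha class was low, the lists split almost evenly: 25 of the 100 rose and 22 fell, beside 19.5% and 17.5% of all genes. Cbs, which feeds cysteine into glutathione, rose from 185 to 506 normalized counts (1.44, adjusted p = 4.05e-07), and Slc7a11, the cystine importer, fell from 4253 to 2226 (-0.93, adjusted p = 1.8e-06). Nfe2l2 fell by 0.29 (adjusted p = 0.00385), Bach1, a repressor of NRF2 targets, fell by 0.76, and Ephx1, the microsomal epoxide hydrolase, rose by 1.01. Gclc did not pass (-0.14 ± 0.07, adjusted p = 0.117). This comparison shares its 3 control libraries with the others against siNT pcDNA, so their lists are given side by side and not as an overlap. Without siNT pcDNA 3, 42 pathway genes passed in this comparison and 35 in that of siMbnl1 pcDNA, against 47 and 33 with it. The even split of siFmr1 pcDNA was lost without siNT pcDNA 2. There 20 pathway genes rose and 30 fell, beside 40.2% of all genes called. With only the 2 groups in the fit of siFmr1 pcDNA, 13 rose and 16 fell, beside 22.7% of all genes called.

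How many pathway genes passed where the MBNL1 plasmids were added depended on which groups entered the fit. Between siFmr1 nMBNL1 and siFmr1 pcDNA none of the 100 genes passed limma at an adjusted p under 0.05, where 1.76% of all genes did, and 17 had an unadjusted p under 0.05, as did 17.9% of all genes. With only these 2 groups in the fit, 13 pathway genes rose and 9 fell, beside 17.2% of all genes called in either direction. Between siMbnl1 cMBNL1 and siMbnl1 pcDNA 1 of the 100 passed, beside 2.24% of all genes, and 14 had an unadjusted p under 0.05, beside 19.4%. With only these 2 groups in the fit, 9 rose and 13 fell, beside 17.7% of all genes called. The 1 call was Ephx1, which was at 757 ± 19.8 with pcDNA and 992 ± 130 with cytosolic MBNL1 (0.38, adjusted p = 0.0385), and its call was lost when any 1 of 5 of the 6 libraries was left out (adjusted p = 0.075 to 0.138). Gclc, Gclm and Hmox1 were at 3671 ± 335, 6770 ± 297 and 11876 ± 1463 in siMbnl1 cMBNL1 and at 3360 ± 98.7, 6694 ± 290 and 11475 ± 1448 in siMbnl1 pcDNA. Against siNT pcDNA, siMbnl1 cMBNL1 had 27 pathway genes higher and 6 lower (17.7% and 16% of all genes), among them 14 NRF2 targets higher and 1 lower. Without siNT pcDNA 2 the split was 25 and 15, and with only the 2 groups in the fit 15 and 2, beside 18.9% of all genes called. The corresponding counts for siFmr1 nMBNL1 were 21 and 22 (21.2% and 19.9% of all genes).

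**Figure D4:**
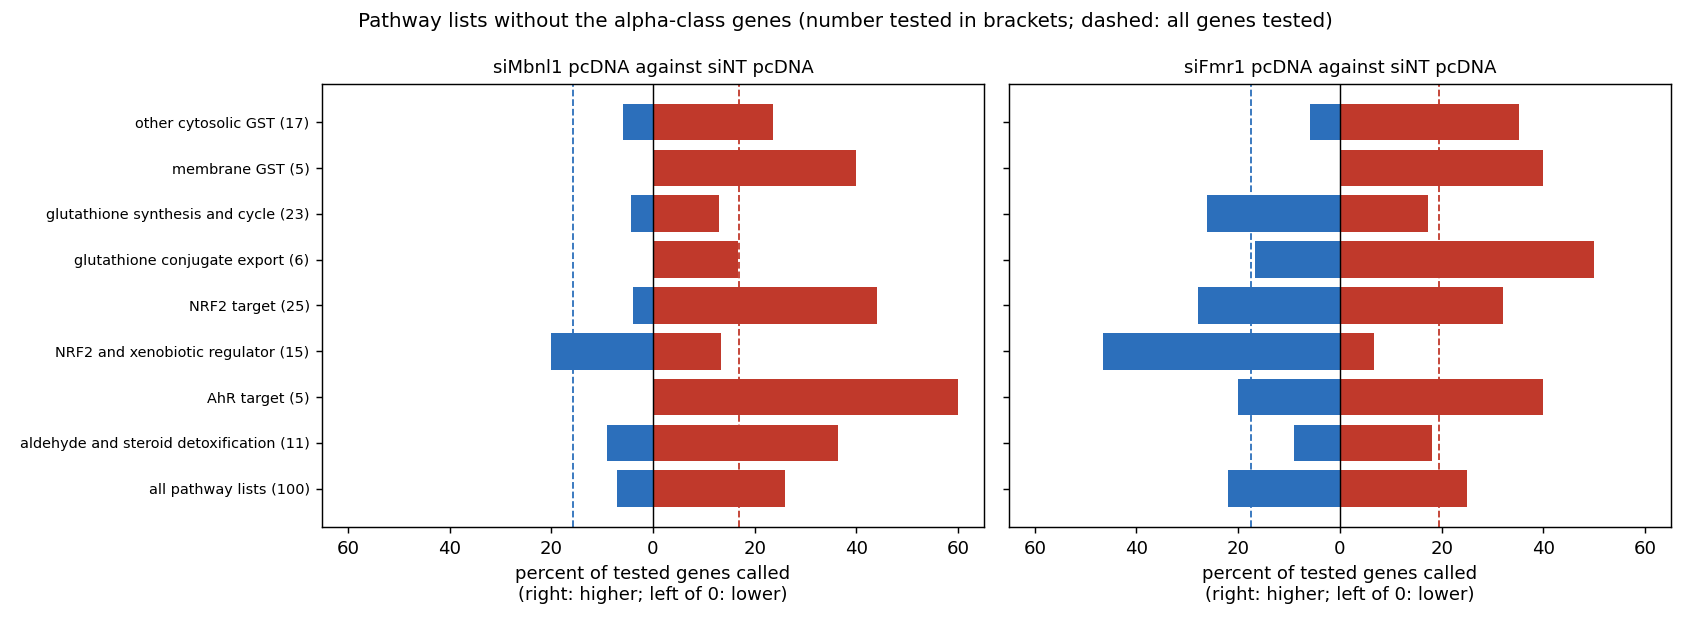
Percent of the tested genes of each pathway list that passed an adjusted p under 0.05 on the x axis, higher to the right and lower to the left of 0, by list on the y axis, in siMbnl1 pcDNA and siFmr1 pcDNA against siNT pcDNA. Dashed lines give the share of all genes tested, and in siMbnl1 pcDNA against siNT pcDNA 11 of 25 NRF2 targets rose and 1 fell. The lists were chosen with earlier results of these data known.

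In mouse tissues the members differed widely in level, and the tables listed between 2 and 5 of them. Liver alone listed all 5. Gsta3 led there with a TPM (a level scaled for transcript length and depth) of 1571 ± 171 in WT (SD, n = 3), followed by Gsta4 (71.4 ± 9.15), Gsta2 (36.7 ± 4.43), Gsta1 (3.97 ± 1.04) and Gm3776 (2.38 ± 1.61). The last 2 did not differ beyond their spread. Gsta1, the leading form in siMbnl1 cMBNL1 cells, was among the lowest of the class in WT liver. Both ranks rest on an uncertain split of reads among the near copies, and the 2 scales differ. Cortex, hippocampus, cerebellum and muscle listed Gsta4 and Gsta3. Gsta4 was at a TPM of 97.0 ± 4.56 in WT cortex, 139 ± 19.2 in hippocampus and 126 ± 6.42 in cerebellum, and Gsta3 at 0.840, 0.773 and 1.52. In WT muscle Gsta4 was at 22.1 ± 4.22 and Gsta3 at 1.13 ± 0.447. WT testis listed Gsta4 at 88.0 ± 13.7, Gsta3 at 36.1 ± 6.46 and Gsta2 at 26.4 ± 5.88. Tables were normalized separately and brain and peripheral libraries were prepared differently, so levels are not compared between tissues by a test.

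**Figure D5:**
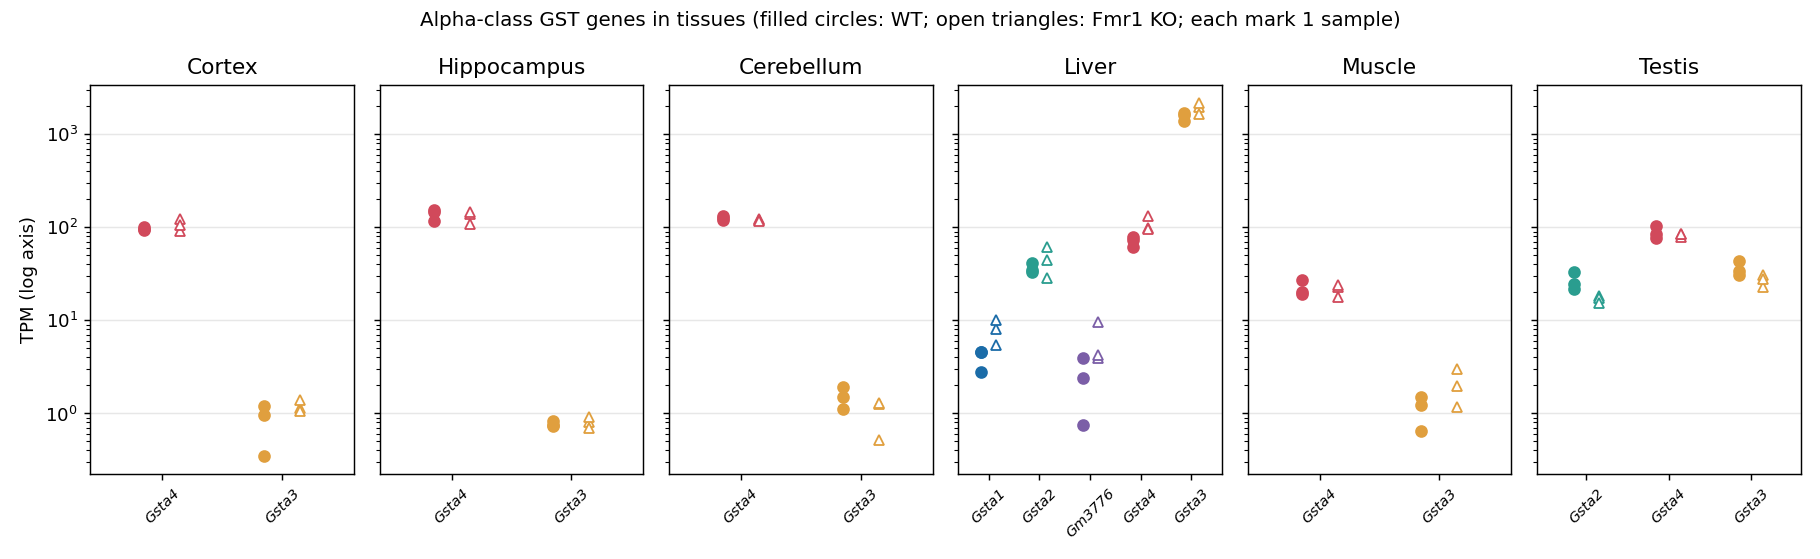
TPM of each listed alpha-class gene on a log y axis, by gene on the x axis and tissue in the panels, with filled circles for WT and open triangles for Fmr1 KO samples, 1 mark per sample. Gsta3 is highest in liver, Gsta4 leads in brain, muscle and testis, and WT and KO marks overlap for most genes.

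Fmr1 KO was set against WT in each tissue. Fmr1 counts were lower in KO in every tissue without overlap. In muscle that difference did not pass edgeR's test (-0.61 ± 0.17, adjusted p = 0.0734). In testis Gsta2 and Gsta3 passed. Gsta2 was at 12.2, 8.07 and 9.44 CPM (counts scaled for library depth) in WT testis and at 7.01, 6.69 and 5.81 in KO, with no overlap, as for 20.6% of all genes in either direction. It fell by 0.61 on the log2 scale (9.91 ± 2.12 to 6.5 ± 0.618 CPM, SD, n = 3 and 3; edgeR quasi-likelihood test, SE 0.16, adjusted p = 0.0163). Gsta3 was at 29.9, 23.7 and 22.4 CPM in WT and 16.6, 21.6 and 19.4 in KO, and fell by 0.39 (SE 0.11, adjusted p = 0.0265). Gsta4 did not pass (-0.07 ± 0.09, adjusted p = 0.748). Of all genes tested in testis 4.27% passed, and 2.28% were lower in KO.

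Both testis calls were fragile. Without WT sample 1, which was the highest for both genes, the adjusted p was 0.182 for Gsta2 and 0.242 for Gsta3. Without KO sample 3 it was 0.116 and 0.0779. The Gsta2 call was also lost without KO sample 2 (0.0597), and that of Gsta3 without KO sample 1 (0.0833) or WT sample 2 (0.0504). The replicate number as a block ended the call of Gsta3 (0.08) and kept that of Gsta2 (0.0394), and DESeq2 called neither, with 0.0504 for Gsta3 and no adjusted p for Gsta2. In the authors' deposited table Gsta2 had a log2 fold change of -0.606 with an adjusted p of 0.0384, and Gsta3 -0.395 with 0.057. Markers of Leydig cells, the steroid-producing cells of the testis, moved with this result. Of the 5 on the list, Hsd3b1 (-0.51, adjusted p = 0.00133), Cyp17a1, Insl3 and Star were called lower in KO by edgeR and Cyp11a1 was not. Their summed TPM was 4408, 3905 and 3400 in WT and 3354, 3094 and 3025 in KO. Of 5 markers of Sertoli cells, the supporting cells of the tubules, Amhr2 was called lower, with a summed TPM of 1203 to 1562 in WT and 1093 to 1167 in KO. Of 5 germ cell markers Tnp1 and Tnp2 were called lower, with sums of 74295 to 79948 in WT and 70986 to 72875 in KO. Of 8 hepatocyte markers 3 were listed, with sums of 5.28 to 11.4 in WT and 2.34 to 3 in KO, and Serpina1a was called lower (-1.39, adjusted p = 0.0226). The part of these cell types in the result was not tested. Markers of epididymis, a neighbouring tissue, summed to a TPM of 5.46 to 7.08 in WT and 4.16 to 6.92 in KO, all from 1 of 5 markers.

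In liver no alpha-class gene passed edgeR's test at an adjusted p under 0.05, as against 0.411% of all genes, and 2 had an unadjusted p under 0.05, as did 11.4% of all genes. DESeq2 called none of them either. Gsta1 was at 1.23, 1.82 and 1.89 CPM in WT and at 3.30, 2.17 and 4.39 in KO (log2 fold change 1.0 ± 0.33, adjusted p = 0.285). Gsta4 was at 39.0, 37.5 and 29.4 in WT and at 47.3, 45.3 and 65.7 in KO (0.58 ± 0.18, adjusted p = 0.246). In both genes all KO samples lay above all WT samples, as the libraries of 17.3% of all genes did in one direction or the other. Gsta1 rests on 18 to 64 reads per library and shares windows with its copies. Gsta3 was at 1229 ± 74.5 CPM in WT and 1490 ± 242 in KO (adjusted p = 0.497), Gm3776 at 1.04 ± 0.770 and 2.52 ± 1.44 (0.45), and Gsta2 at 15.5 ± 1.63 and 18.8 ± 7.38 (0.75). KO sample 3 was the highest of all 6 for each of the 5 genes. All 8 hepatocyte markers were listed, with a summed TPM of 117263 to 148142 in WT and 127315 to 144777 in KO. The 6 fibroblast markers summed to a TPM of 115.1, 115.2 and 121.8 in WT and 169.8, 159 and 168.3 in KO, without overlap as for Gsta1 and Gsta4, although none of the 6 passed edgeR's test (adjusted p of 0.15 for Dcn and 0.523 or more for the others). Their part in the liver values was not tested.

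No alpha-class gene passed edgeR's test in brain or muscle, and none had an unadjusted p under 0.05 there. The share of all genes that passed was 0.0203% in cortex, 0.209% in hippocampus, 0.226% in cerebellum and 4.04% in muscle, and 21%, 12.5%, 8.72% and 25.9% had an unadjusted p under 0.05. In brain the log2 fold change of Gsta4 was 0.13 ± 0.10 in cortex, -0.08 ± 0.13 in hippocampus and -0.05 ± 0.06 in cerebellum. Hippocampus WT 1 and KO 2 stood apart on the first principal component (-32.2 and -36.6, against 5.22 to 24.2 for the others). They also had the lowest Gsta4 values (32.6 and 30.3 CPM, against 38.3 to 41.7). The part of this split in the hippocampus values was not tested. Differences of the KO effect between brain regions had adjusted p of 0.336 or more for both genes. That edgeR fit took all samples as separate, and the labels do not say whether regions came from the same animals. In muscle Gsta4 was at 11.2 ± 2.01 CPM in WT and 9.55 ± 1.14 in KO (adjusted p = 0.403). Gsta3, with 4 to 30 reads in the cortex and muscle libraries, cannot show a small difference at this depth.

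The earlier N2a experiment listed 1 member, Gsta4, with 22 and 14 reads in the 2 siNT libraries and 36, 16 and 31 in the 3 siFmr1 libraries. In CPM it was at 1.46 and 0.962 against 2.52, 1.19 and 2.0, which overlapped, whereas 7.82% of all genes did not (edgeR log2 fold change 0.65 ± 0.57, adjusted p = 1). None of the 12187 genes tested passed edgeR's or DESeq2's test there (0%), and 47 (0.386%) had an unadjusted p under 0.05 by edgeR and 52 by DESeq2. Fmr1 itself was at 77.7 and 22.4 CPM in siNT and 14.7, 14.7 and 2.12 in siFmr1, so the control libraries differed widely. The libraries split across the groups: siNT 2 and siFmr1 3 stood apart on the first principal component (66.1 and 43.7, against -46.3, -42.1 and -21.5 for the others), and Mbnl1 was at 46.7 and 59.9 CPM in these and at 175 to 238 in the others. The Gsta4 mean was higher in siFmr1, as in siFmr1 pcDNA of the co-transfection experiment, but here the difference did not pass and there it was not tested.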

How the data were processed

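Bulk RNA sequencing of 56 mouse samples in 19 groups was used. Per the submitters' processing notes, tools included RSEM 1.3.1, STAR 2.6.1, Bowtie2 2.3.5, Trimmomatic 0.39, FastQC 0.11.8 and DESeq2 1.16.1, with GRCm38; which tool did what is not stated there. Tissue and first N2a tables held raw read counts and TPM per gene, both deposited by the authors, beside log2 fold changes and p-values that the authors deposited and that are quoted once. For co-transfection, the authors deposited a scaled signal per gene, named normalized counts after the table. Its values are not whole multiples of 1 step per library, so reads could not be recovered. 4 count and TPM columns matching no labelled sample were not used.

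Totals were 26264368 to 41384652 counts per brain library, 13230785 to 16168225 in liver, 13934559 to 15386794 in muscle, 13752391 to 15879775 in testis and 13273331 to 16268865 in the first N2a experiment. Counts of each comparison alone were filtered with filterByExpr, scaled with TMM and tested with edgeR 4.0.16 (quasi-likelihood F test, in R 4.3.3). Co-transfection values were tested with limma 3.58.1 with an intensity trend on log2(value + 1), over 16242 genes with a mean of at least 1 and all 15 libraries in 1 fit. Such fold changes understate the change of low genes. 4 rows with duplicated date-like names were left out. Calls needed a Benjamini-Hochberg adjusted p under 0.05 over all genes tested. DESeq2 1.42.0 was an alternative. Steps were tested on simulated data. Sequences were compared with Biopython 1.88, and figures drawn with matplotlib 3.10.9 under Python 3.11.15.

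Members and lists were chosen with earlier results of these data known. Pathway genes were named by a rule: for each list and comparison, up to 2 higher and 2 lower with the largest absolute log2 fold change among called genes without overlap and with a mean of at least 5 in 1 group, plus Nfe2l2, Keap1, Nqo1, Hmox1, Gclc, Gclm and Cyp1a1; genes like Gsta1 by the 5 highest correlations. Not all of these are printed. Neighbours of the cluster and cell type markers were named after their values were seen.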

Additional observations from a re-analysis of the deposited data

How the results depend on the processing

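In testis the 2 calls became 0 with DESeq2, which gave Gsta3 an adjusted p of 0.0504 and Gsta2 none, and 1 with the replicate number as a block (Gsta2 0.0394, Gsta3 0.08). Over the fits without 1 sample the count was 0 to 2. Calls of alpha-class genes in the other tissues and the first N2a experiment stayed at 0 under every alternative that was run. DESeq2 called more of all genes than edgeR in cortex (914 against 3), hippocampus (259 against 31), cerebellum (91 against 33), liver (277 against 49) and muscle (1097 against 512). In testis DESeq2 called fewer (481 against 661). Same-numbered samples were not treated as paired, since in no comparison did every pair have a correlation of deviations over 0.1. The highest was 0.0765 in the co-transfection groups, and in the tissues and first N2a libraries pair 3 of hippocampus reached 0.569 and pair 1 of N2a 0.701, where the other pairs of the same comparison were below 0.

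Counts of pathway genes, 33, 47, 43, 33, 0 and 1 in the order siMbnl1 pcDNA, siFmr1 pcDNA, siFmr1 nMBNL1 and siMbnl1 cMBNL1 against siNT pcDNA, then nuclear and cytosolic MBNL1 against their pcDNA control, were 32, 48, 46, 32, 0 and 1 with the replicate block. With only the 2 groups compared in the fit they were 20, 29, 35, 17, 22 and 22, beside 15.1%, 22.7%, 25.7%, 18.9%, 17.2% and 17.7% of all genes. With all 15 libraries in the fit and a log2 fold change beyond ±1 required too, they were 9, 11, 12, 8, 0 and 0. The shares of all genes were then 4.99%, 7.95%, 8.3%, 5.47%, 0.246% and 0.271%. The count with nuclear MBNL1 was 1 without a low-value filter, and that with cytosolic MBNL1 was 3 at a mean of at least 5 and 2 after rescaling with TMM. Both ranged from 0 to 1 over the fits without 1 library. The cause of these shifts was not tested.

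Directions that turned without 1 library were those of small differences. The ranges were -0.18 to 0.039 for Gsta4 and -0.053 to 0.18 for Gsta3 in hippocampus, -0.049 to 0.52 for Gsta2 in liver and -0.14 to 0.045 for Gsta4 in testis. Gm3776 in siFmr1 pcDNA against siNT pcDNA ranged from -0.36 to 0.70. Keap1 ranged from -0.15 to 0.021 in siFmr1 pcDNA, and from -0.14 to 0.038 in siFmr1 nMBNL1, against siNT pcDNA, and from -0.043 to 0.084 between both. Hmox1 ranged from -0.19 to 0.016 in siFmr1 nMBNL1 against siNT pcDNA and from -0.047 to 0.14 in siMbnl1 cMBNL1 against siMbnl1 pcDNA. Nfe2l2 ranged from -0.021 to 0.080 in siMbnl1 cMBNL1 against siNT pcDNA. Gclm ranged from -0.018 to 0.034 with nuclear and from -0.020 to 0.04 with cytosolic MBNL1 against their pcDNA control.

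The size of a log2 difference of a low gene depends on the pseudocount: that of Gsta1 in siMbnl1 pcDNA against siNT pcDNA was 6.83 with 0.5 and 4.04 with 5. A count test on recovered reads was not run, since whole reads could not be recovered. Low counts limit Gsta1 and Gm3776 in liver and Gsta3 in brain and muscle.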
